A study of Mus musculus with 8 samples.

Results

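Lungs of newborn mice were examined for 10 genes that set the tone of pulmonary vessels, chosen by their symbols as genes of nitric oxide, cyclic GMP, prostacyclin, endothelin and BMP receptor 2 signalling. Of these, 9 had a named array feature, 29 features in all, with 11 for Nos3, 10 for Edn1, 2 for Nos2 and 1 each for Pde5a, Prkg1, Ptgis, Ptgir, Ece1 and Bmpr2. No feature used here carried the symbol or RefSeq accession of Ednra, the endothelin A receptor gene, which was therefore not analysed here. The feature with the highest mean over all 8 arrays stood for each gene. All 9 measured genes lay above the filter on dim features (a mean of 2.76 on the log2 scale) and were part of the 17234 genes tested.

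All pups were C57Bl/6J, and all breathed 85% oxygen between postnatal days 0 and 3, a treatment used in newborn mice as a model of bronchopulmonary dysplasia. One group of 4 arrays carried the genotype label Fgf10 +/- (TG in the titles) and the other group of 4 was labelled wild-type. Pups in room air were not analysed here, so every value is a genotype difference under oxygen. The labels do not describe the Fgf10 allele, the sex of the pups or their litters. Nothing says that the samples of a group are separate animals, so a p-value here reflects only how these samples scatter, which may be technical.

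The tissue label was borne out by the surfactant gene Sftpc, which lay between 15.98 and 15.99 (log2 intensity) on all arrays, at the top of the scale. Fgf10 itself did not check the labels. Its brightest feature read 7.81, 7.99, 8.10 and 8.28 in arrays 1 to 4 labelled Fgf10 +/- and 7.53, 8.16, 7.91 and 7.64 in wild-type arrays 1 to 4, and the groups overlapped. The mean of this feature, 1 of 10 for Fgf10, was higher in the group labelled Fgf10 +/-, 8.04 against 7.81. The log2 difference was 0.23 (SE 0.16, limma adjusted p = 0.653). Directions therefore rest on the labels. Wild-type array 4 was highest in all 5 mesothelial markers and stood apart in Nppa. The natriuretic peptide gene Nppa, named after its values were seen, read 11.25 there and between 4.55 and 6.25 on the other 7 arrays.

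Pulmonary arteries relax when endothelial nitric oxide synthase makes nitric oxide, which raises cyclic GMP in the smooth muscle and activates its cyclic GMP-dependent kinase, until phosphodiesterase 5 breaks the nucleotide down. Prostacyclin relaxes the same muscle through its own receptor, while endothelin, cut from its precursor by a converting enzyme, contracts it through the A receptor. BMP receptor 2 restrains growth of the vessel wall, and mutation of its gene is the best-known inherited cause of pulmonary arterial hypertension. Poor vessel growth and pulmonary hypertension accompany bronchopulmonary dysplasia, and inhaled nitric oxide, phosphodiesterase 5 inhibitors, prostacyclin analogues and endothelin receptor blockers act in these pathways.

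RefSeq promoter windows (GRCm38.p6, 250 bases before to 50 after a start) were at hand for 7 of the 10 genes, 11 windows in all. They were searched on both strands for TATAAA, for ACGTG (the core bound by hypoxia-inducible factors), for TGACTCA (an AP-1 site), for GATAAG (bound by zinc finger factors of blood and endothelium) and for the kappa B consensus. In the 250 bases upstream, 1 of the 11 windows held ACGTG, against 16.6% of all 32851 promoters, and none held TATAAA (12.4% of all), TGACTCA (4.46%), GATAAG (6.55%) or the kappa B consensus (7.25%). Over the whole 300 bases, a window added after the first search, Edn1 held GATAAG (7.44% of all promoters) and ACGTG (19.6%) just after its annotated start. Both stretches are shown because they carry the only matches, at the endothelin gene and at the gene of its converting enzyme. The capitals mark the matches. The Edn1 stretch lies at chr13:42301483-42301501, plus strand, bases 8 to 26 after the start, and each match is the reverse complement of the searched letters. The Ece1 stretch lies at chr4:137913428-137913513, plus strand, from -130 to -45 relative to 1 of its 4 listed starts, where ACGTG and its reverse complement overlap as 1 palindrome.
Edn1: CTTATCtctggctgCACGT
Ece1: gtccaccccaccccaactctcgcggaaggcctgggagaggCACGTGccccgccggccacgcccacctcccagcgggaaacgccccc
These matches are descriptions of the letters. No binding was measured in this series.

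In the lungs labelled Fgf10 +/-, 8 of the 9 measured genes had a lower mean than in wild-type lungs, and the exception, Nos2, differed by 0.01. None of the 9 was called by limma at a Benjamini-Hochberg adjusted p below 0.05 over all tested genes, a rule that called 0.795% of all genes. Without adjustment, 5 of the 9 had a limma p below 0.05 and a lower mean (Nos3, Ptgis, Ece1, Prkg1 and Ptgir), a result seen in 5.79% of all genes, and none was higher, against 5.39% of all genes. In 3 of the 9 (Nos3, Ptgir and Ece1) every array labelled Fgf10 +/- lay below every wild-type array, as in 3.51% of all genes. None lay wholly above, as 3.13% of all genes did. The median log2 difference of the 9 was -0.40, beside 0.01 over all genes, 48.7% of which had a negative sign. The 9 genes come from the same 8 arrays and are not independent of each other. They were also chosen with earlier results of these data known, so setting them beside all genes does not test the list. The number of the 9 genes lower at an unadjusted p below 0.05 lay between 4 and 6 in every alternative tried, but the genes changed. Without wild-type arrays 1 and 4, Ptgir was no longer among them (limma unadjusted p = 0.0776). Edn1 (limma unadjusted p = 0.0198) and Bmpr2 (limma unadjusted p = 0.0351) were added there.

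**Figure D1:**
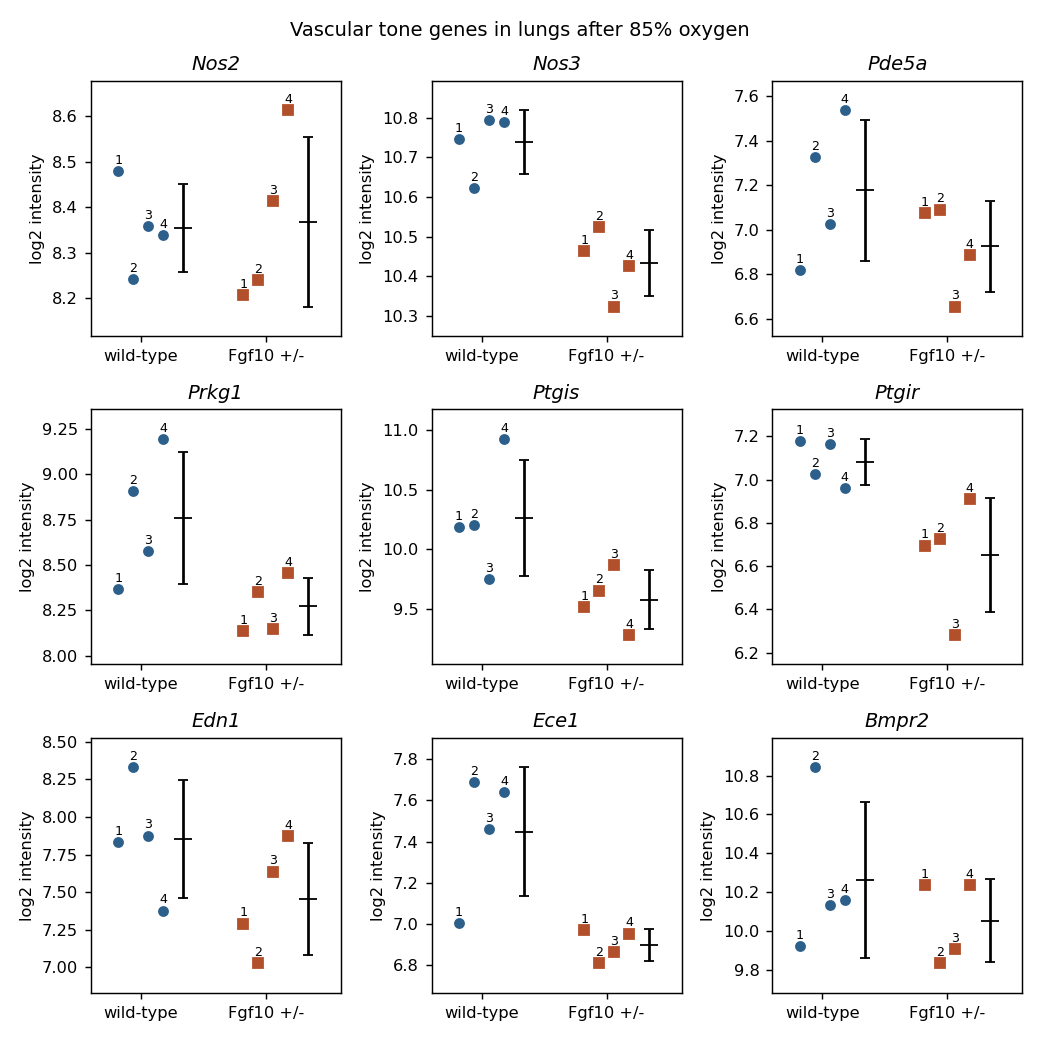
Log2 intensity of the 9 measured vascular tone genes on each array, with array numbers beside the points (circles wild-type, squares Fgf10 +/-) and the mean ± SD of each group of 4 in black; axes do not start at 0. In Nos3, Ptgir and Ece1 the groups do not overlap, while Nos2 has nearly equal means of 8.37 and 8.35.

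Nos3 encodes endothelial nitric oxide synthase, the main source of nitric oxide in the vessel wall. Its brightest feature read 10.46, 10.52, 10.32 and 10.43 in arrays 1 to 4 labelled Fgf10 +/- and 10.75, 10.62, 10.80 and 10.79 in wild-type arrays 1 to 4 (log2 intensity). The groups lay apart, with wild-type array 2 nearest to the other group. The mean was 1.24-fold lower in the arrays labelled Fgf10 +/-, a log2 difference of -0.31 (SE 0.08, 95% CI -0.48 to -0.13, limma adjusted p = 0.131). The exact permutation p was 0.0286, the smallest that 4 against 4 arrays can give. Of the 11 Nos3 features, 10 read between 7.59 and 8.12 on average and the brightest 10.6. All 11 were lower on average in that group, with log2 differences from -0.59 to -0.30. Averaged over the 11 features, it stood at 7.90 ± 0.09 and the wild-type group at 8.29 ± 0.16 (SD, 4 arrays in each group; exact permutation p = 0.0286). Features of a gene may be repeated spots of 1 probe and are not replicates.

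Nos2 encodes inducible nitric oxide synthase, made by macrophages and other cells under inflammatory stimuli. Its values spanned 8.21 to 8.61 in arrays labelled Fgf10 +/- and 8.24 to 8.48 in wild-type arrays. The groups overlapped, and the log2 difference of 0.01 had a 95% CI of -0.26 to 0.29 (limma adjusted p = 0.982). The second Nos2 feature differed by 0.07. With 1 array left out, the sign of the difference turned in 3 of 8 cases, with a range of -0.07 to 0.07.

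Downstream of nitric oxide, Prkg1 encodes the cyclic GMP-dependent kinase of smooth muscle. It read 8.13, 8.35, 8.15 and 8.45 in arrays 1 to 4 labelled Fgf10 +/- and 8.37, 8.91, 8.57 and 9.20 in wild-type arrays 1 to 4. Wild-type array 1 lay within the range of the other group, and the other 3 wild-type arrays above it. The log2 difference was -0.49 (SE 0.17, 95% CI -0.85 to -0.13, limma adjusted p = 0.261, exact permutation p = 0.0571), a 1.40-fold lower mean. It was -0.62 without wild-type array 1 and -0.34 without wild-type array 4. Pde5a, whose enzyme breaks cyclic GMP down and is the target of sildenafil, spanned 6.66 to 7.09 in arrays labelled Fgf10 +/- and 6.82 to 7.54 in wild-type arrays. Its groups overlapped, with a log2 difference of -0.25 (95% CI -0.66 to 0.16, limma adjusted p = 0.683), which was -0.13 without wild-type array 4 and -0.37 without wild-type array 1.

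In the prostacyclin branch, Ptgis encodes prostacyclin synthase. It read 9.51, 9.65, 9.86 and 9.28 in arrays 1 to 4 labelled Fgf10 +/- and 10.18, 10.20, 9.75 and 10.92 in wild-type arrays 1 to 4. Wild-type array 3 lay below array 3 of the other group, and wild-type array 4 was highest of all. Ptgis had the largest log2 difference of the 9 genes, -0.69 (SE 0.20, 95% CI -1.12 to -0.26, limma adjusted p = 0.161, exact permutation p = 0.0571), a 1.61-fold lower mean. Without wild-type array 4, the array highest in all 5 mesothelial markers and in Nppa, the difference was -0.47 (limma adjusted p = 0.265). It was -0.40 without wild-type arrays 1 and 4 and -0.86 without wild-type array 3.

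Ptgir encodes the prostacyclin receptor, which raises cyclic AMP in smooth muscle and platelets. It read 6.69, 6.72, 6.28 and 6.91 in arrays 1 to 4 labelled Fgf10 +/- and 7.18, 7.03, 7.17 and 6.96 in wild-type arrays 1 to 4. The groups lay apart by a narrow margin, between array 4 labelled Fgf10 +/- and wild-type array 4. The log2 difference was -0.43 (SE 0.18, 95% CI -0.82 to -0.04, limma adjusted p = 0.377, exact permutation p = 0.0286). It was -0.31 without array 3 labelled Fgf10 +/-, the lowest of its group, and -0.52 without array 4 of that group.

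In the endothelin branch, Ece1 encodes the enzyme that cuts big endothelin to the active peptide. It read 6.97, 6.81, 6.86 and 6.95 in arrays 1 to 4 labelled Fgf10 +/- and 7.01, 7.69, 7.46 and 7.64 in wild-type arrays 1 to 4. The arrays labelled Fgf10 +/- lay close together, and wild-type array 1 stood just above them. The log2 difference was -0.55 (SE 0.18, 95% CI -0.93 to -0.17, limma adjusted p = 0.223, exact permutation p = 0.0286), a 1.46-fold lower mean. Edn1, the gene of the constrictor peptide itself, read 7.29, 7.03, 7.64 and 7.87 in arrays 1 to 4 labelled Fgf10 +/- and 7.83, 8.33, 7.88 and 7.38 in wild-type arrays 1 to 4. The groups overlapped, since array 4 labelled Fgf10 +/- lay above 2 wild-type arrays and wild-type array 4 below 2 arrays of the other group. The log2 difference was -0.40 (SE 0.22, 95% CI -0.87 to 0.08, limma adjusted p = 0.542, exact permutation p = 0.171). Without wild-type array 2 it was -0.24, and without wild-type array 4 it was -0.56. All 10 Edn1 features were lower on average in the group labelled Fgf10 +/-, with differences from -0.40 to -0.11, and their average differed by -0.30 (exact permutation p = 0.286).

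**Figure D2:**
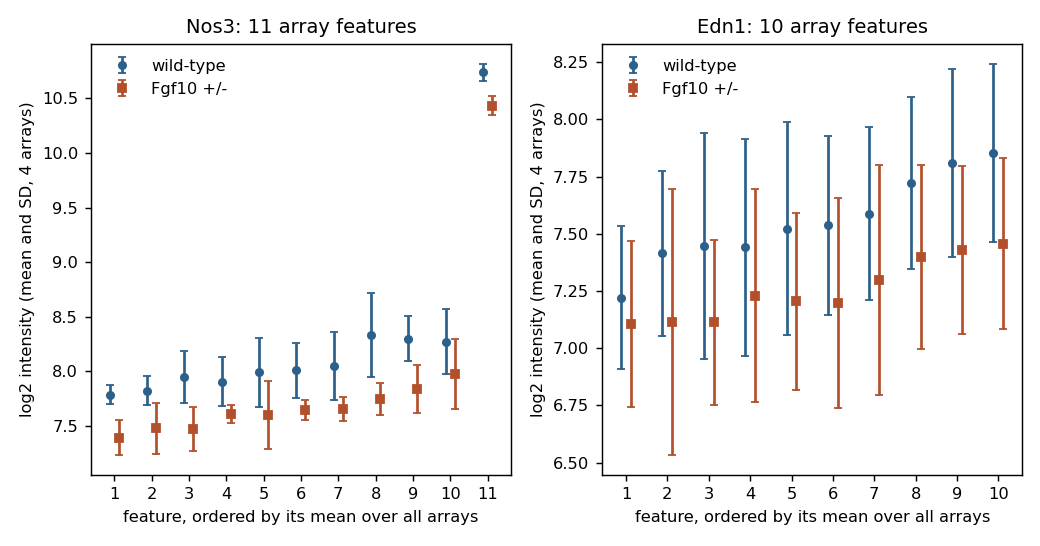
Mean and SD over 4 arrays (log2 intensity) of each of the 11 features of Nos3 and the 10 features of Edn1, ordered by their mean over all arrays; axes do not start at 0. Every wild-type mean (circles) lies above the Fgf10 +/- mean (squares) of the same feature, but the bars overlap for every Edn1 feature.

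Bmpr2, the receptor gene mutated in heritable pulmonary arterial hypertension, spanned 9.83 to 10.24 in arrays labelled Fgf10 +/- and 9.92 to 10.84 in wild-type arrays. Only wild-type array 2 lay above the range of the other group. The log2 difference was -0.21 (95% CI -0.58 to 0.16, limma adjusted p = 0.708) and -0.02 without wild-type array 2. It was -0.32 without wild-type array 1 and -0.43 without wild-type arrays 1 and 4.

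The wild-type arrays varied more than the other group in 6 of the 9 genes, and different arrays carried the high values. Wild-type array 4 was highest in Pde5a, Prkg1 and Ptgis, and wild-type array 2 in Edn1, Ece1 and Bmpr2. Wild-type array 1 was the lowest wild-type array in Pde5a, Prkg1, Ece1 and Bmpr2. With 1 array left out in turn, the 8 genes with a negative difference kept their sign in every case.

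**Figure D3:**
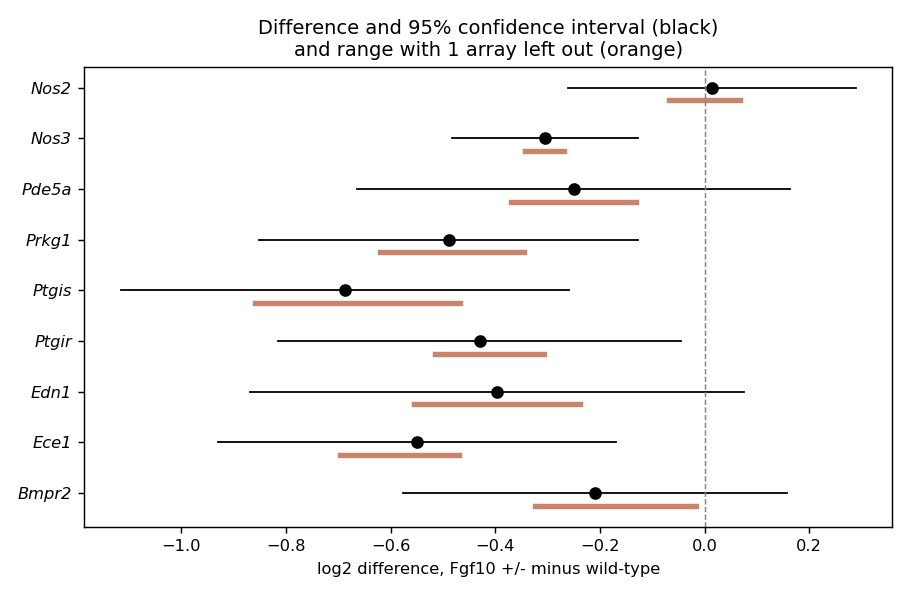
Log2 difference (Fgf10 +/- minus wild-type) of the 9 measured genes, with the 95% confidence interval of the limma fit in black and, in orange, the lowest and highest value found on dropping 1 array at a time. The intervals of Nos3, Prkg1, Ptgis, Ptgir and Ece1 lie below 0, and the range of Bmpr2 reaches -0.02.

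In whole lung, fewer cells of a type and less RNA per cell cannot be told apart, so marker genes of the vessel wall are given beside these values. Of 16 endothelial markers none was called by limma. At an unadjusted p below 0.05, 2 were lower and none higher, beside 5.79% and 5.39% of all genes. In sign, 12 were negative and 4 positive, with a median log2 difference of -0.04. Vwf, named after its values were seen, differed by -0.36 (SE 0.09, limma adjusted p = 0.0823), and its groups did not overlap. Cdh5, the cadherin of endothelial junctions, differed by -0.04 (SE 0.08), the angiopoietin receptor gene Tek by -0.09 (SE 0.12) and Pecam1 by -0.29 (SE 0.15). The summed level of the list lay between 16.08 and 16.38 in arrays labelled Fgf10 +/- and between 16.06 and 16.25 in wild-type arrays. This sum weighs the brightest markers most. Those were Egfl7 and Cldn5, named after their values were seen, with positive differences of 0.11 and 0.15. Of 10 smooth muscle markers none was called either, but 9 had a negative sign and 5 a lower mean at an unadjusted p below 0.05, with a median of -0.27. Smooth muscle actin (Acta2) differed by -0.30 (SE 0.10), the myosin gene Myh11 by -0.32 (SE 0.12) and Tagln by -0.06 (SE 0.10). Of 9 pericyte markers, Postn alone was called, lower by -0.48 (SE 0.09, limma adjusted p = 0.0307), and it is named after its values were seen. Postn was also the only one with an unadjusted p below 0.05. In sign, 6 of the 9 were negative and 3 positive, with a median of -0.09. Of 8 arterial markers, 2 had a lower mean at an unadjusted p below 0.05 and none was called (median -0.11). In sign, 6 of the 8 were negative and 2 positive. The gap junction gene Gja5, the most negative of the 8, differed by -0.35 (SE 0.14), Hey1 by -0.13 (SE 0.15) and Efnb2 by 0.03 (SE 0.11). The summed level of the smooth muscle list lay between 15.34 and 15.54 against 15.47 to 15.87 in wild-type arrays.

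Each gene was also set against these markers within the same array, by subtracting the array's mean deviation over the list. This comparison was added after the values were seen, for all 9 genes and both lists, 18 comparisons in all, and their permutation p-values are not adjusted. Relative to the endothelial markers, Nos3 differed by -0.22 (exact permutation p = 0.114), Ece1 by -0.46 (exact permutation p = 0.0571), Edn1 by -0.31 (exact permutation p = 0.257) and Ptgir by -0.34 (exact permutation p = 0.0286). By construction a score moves all 9 differences upward by one amount, 0.09 for the endothelial and 0.25 for the smooth muscle list. Only the spread between arrays can therefore differ from gene to gene. Relative to the smooth muscle markers, Nos3 differed by -0.06 (exact permutation p = 0.686), with overlapping groups, against -0.31 as measured. Prkg1 differed by -0.24 (exact permutation p = 0.314), Ptgis by -0.44 (exact permutation p = 0.257), Ptgir by -0.18 (exact permutation p = 0.229) and Pde5a by less than 0.01, against -0.25 as measured. The part of endothelial or smooth muscle cells in these differences was not tested. Ptgir against the endothelial markers was the only one of the 18 comparisons whose groups did not overlap. As measured, without a score subtracted, 3.51% of all genes lay wholly lower and 3.13% wholly higher.

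**Figure D4:**
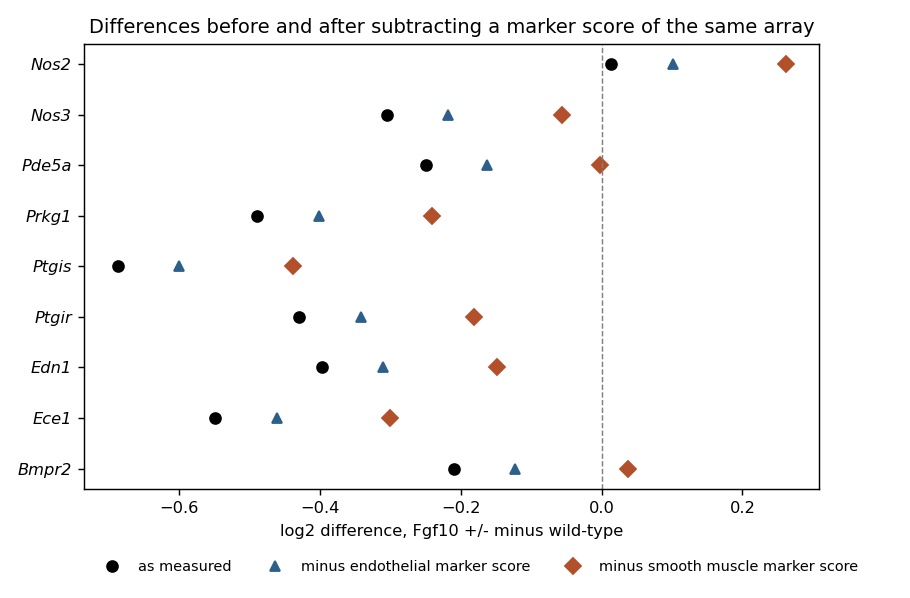
Log2 difference (Fgf10 +/- minus wild-type) of the 9 measured genes as measured (circles), after subtracting the endothelial marker score of the same array (triangles) and after subtracting the smooth muscle marker score (diamonds). By construction each score moves all 9 differences upward by one amount (0.09 and 0.25), and with the smooth muscle score Nos3, Pde5a and Bmpr2 lie near 0.

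Mesothelial markers, all 5 of them, were highest on wild-type array 4, where Ptgis, Prkg1 and Pde5a were highest. None of 5 mesothelial markers was called by limma, 1 had an unadjusted p below 0.05 and all 5 had a negative sign, with a median log2 difference of -0.70. The mean deviation of the list was 1.90 on wild-type array 4, -0.69 to 0.64 on the other wild-type arrays and -1.05 to 0.15 on arrays labelled Fgf10 +/-. Its summed level lay between 12.82 and 13.60 in the latter and between 13.53 and 14.60 in wild-type arrays. Mesothelin (Msln) read 14.56 on wild-type array 4 against 12.79 to 13.82 elsewhere. For the 7 heart markers, none of which was called by limma or had an unadjusted p below 0.05, the mean deviation was 1.01 on wild-type array 4 and -0.57 to 0.07 on the other 7 arrays. That value rested on Nppa. Over the other 6 heart markers, an alternative added after the values were seen, the mean deviation was 0.27 on both wild-type arrays 3 and 4, and 4 of the 7 markers were highest on another array. The part of the mesothelial markers and Nppa in the values of Ptgis, Prkg1 and Pde5a was not tested beyond leaving that array out.

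The wider pathways were read from 6 lists of 89 other genes, of which 81 were tested. None of the 81 was called by limma. At an unadjusted p below 0.05, 13 were lower and 5 higher, beside 5.79% and 5.39% of all genes. The same shares stand beside the counts of each list below. The median log2 difference of the 81 was -0.04. These lists, too, were chosen with earlier results of these data known. Among 11 genes of nitric oxide supply 4 were lower at an unadjusted p below 0.05 and none higher, with a median of -0.18. Arg1, an arginase that competes with the synthases for arginine, differed by -2.09 (SE 0.59, limma adjusted p = 0.154). It read 8.40 on wild-type array 1, 4.78 to 5.69 on the other wild-type arrays and 3.55 to 4.58 on arrays labelled Fgf10 +/-. Ass1, which rebuilds arginine from citrulline, differed by -0.42 (SE 0.12) and Cav1, the caveolin that holds endothelial synthase inactive, by -0.41 (SE 0.13). The groups did not overlap in these 3 genes. They were named, as in the other lists, for the smallest p of their list, which favours groups that lie apart. Of all genes, 3.51% lay wholly lower and 3.13% wholly higher. Macrophages can express Arg1 and Nos2. Of 11 macrophage markers none was called by limma, 4 had a lower and 1 a higher mean at an unadjusted p below 0.05 (median -0.25), and their summed level lay between 13.24 and 13.41 in arrays labelled Fgf10 +/- and between 13.34 and 13.73 in wild-type arrays. Their part in the Arg1 values was not tested.

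Among 16 tested genes of cyclic GMP synthesis, breakdown and action, 1 was lower and none higher at an unadjusted p below 0.05 (median -0.02). The phosphodiesterase gene Pde9a differed by -0.34 (SE 0.13), the second cyclic GMP-dependent kinase gene Prkg2 by 0.32 (SE 0.19) and Mrvi1, a substrate of the first kinase, by -0.24 (SE 0.17). Among 16 prostanoid genes 4 were lower and 1 higher (median -0.22). The cyclooxygenase gene Ptgs1, which works upstream of Ptgis, differed by -0.46 (SE 0.12, limma adjusted p = 0.105), and the prostaglandin E receptor genes Ptger3 by -0.69 (SE 0.18) and Ptger2 by -0.41 (SE 0.17). Ptger3 read 5.74 to 5.96 in arrays labelled Fgf10 +/- and 6.47 to 6.65 in wild-type arrays, with no overlap.

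In the endothelin list 5 of 6 tested members had a positive sign, beside 51.3% of all genes, with a median of 0.29, and 1 of the 6 had an unadjusted p below 0.05. That was the peptidase gene Mme, whose product breaks endothelin down, with a difference of 0.62 (SE 0.23, limma adjusted p = 0.32). The propeptide convertase gene Furin differed by -0.19 (SE 0.10), and Ece2 by 0.41 (SE 0.42). Ece2 and Edn3, both among the positive signs and on either side of the median, lay near the filter on dim features. The endothelin B receptor gene Ednrb differed by 0.01, and Kel, named after its values were seen, by 0.48 (SE 0.50). Among 14 partners and targets of BMP receptor 2, 2 were higher and 1 lower at an unadjusted p below 0.05 (median 0.07). Id2, a target of BMP signalling, differed by 0.47 (SE 0.13, limma adjusted p = 0.154) with no overlap between groups, the partner receptor gene Acvrl1 by 0.24 (SE 0.09) and the co-receptor gene Eng by -0.24 (SE 0.10). Without wild-type array 1, Id2 was called, at 0.57 (SE 0.12, limma adjusted p = 0.0465).

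Of 18 other regulators of vascular tone 3 were lower and 1 higher at an unadjusted p below 0.05 (median -0.09). Adm, which encodes the dilator adrenomedullin, read 5.69 to 6.27 in arrays labelled Fgf10 +/- and 6.48 to 6.98 in wild-type arrays, a difference of -0.85 (SE 0.21, limma adjusted p = 0.086). Vipr2, a receptor of the dilator vasoactive intestinal peptide, differed by -0.58 (SE 0.14, limma adjusted p = 0.0855), and the angiotensin-converting enzyme gene Ace by -0.49 (SE 0.14, limma adjusted p = 0.154). In all 3, again named for the smallest p of their list, the groups did not overlap. Adm and Vipr2 were the only 2 of the 81 genes that passed at an adjusted p below 0.10.

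**Figure D5:**
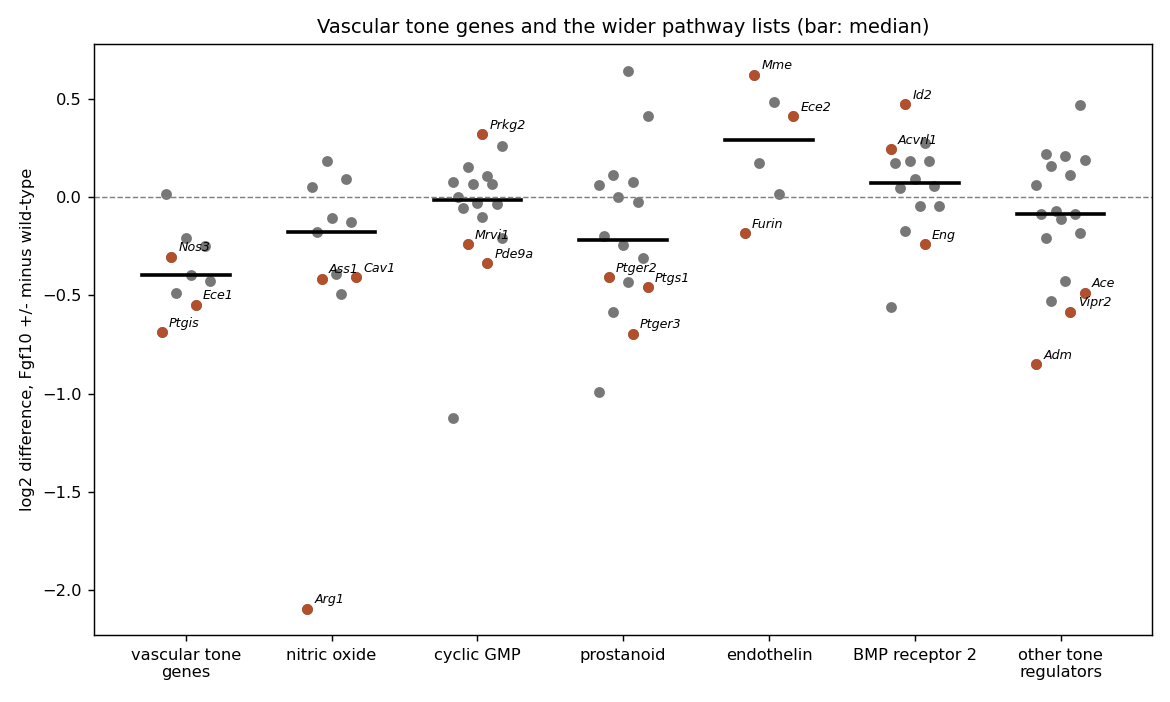
Log2 difference (Fgf10 +/- minus wild-type) of the 9 measured vascular tone genes and of the tested genes of 6 wider pathway lists, with the median of each list as a bar; the 3 genes with the smallest p in each list are named. The medians run from -0.40 for the vascular tone genes to 0.29 for the endothelin list, and Arg1 lies lowest at -2.09.

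The genes whose log2 values over the 8 arrays were most like those of a vascular tone gene were listed by Pearson correlation, as the highest of all tested genes other than predicted ones and with no test. For Nos3 they were Nrk (r = 0.97) and Slc40a1 (r = 0.97), and for Ptgis Dact3 (r = 0.99) and Gfpt2 (r = 0.98). For Prkg1 they were Wnt9a and Sac3d1 (both r = 0.98), and for Pde5a Vpreb2 and Cdk2ap1 (both r = 0.98). For Ece1 they were Il6st and Luzp1 (both r = 0.99), for Bmpr2 Mcm2 (r = 0.98) and Rrp8 (r = 0.96), and for Edn1 Olfr456 (r = 0.97) and Ddx49 (r = 0.95). For Ptgir they were Mtmr11 (r = 0.95) and Gprin2 (r = 0.94), and for Nos2 Wipi1 and Vmn2r43 (both r = 0.95). No gene was shared between these pairs.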

How the data were processed

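Total RNA from whole lung was amplified with Agilent's low-input kit and hybridised with 1 dye (Cy3), per the labels' protocols. The authors deposited log2 intensities of 62976 features on 8 arrays. Their quantiles were nearly identical between arrays, and no further normalization was applied. Limma is named, per the submitters' processing notes, with no background step described, and no detection calls were used. Features with missing values (189) were left out. Symbols came from the platform annotation, updated by accession through RefSeq's GRCm38.p6 gene table (29050 of 31465 named features matched).

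Named features with a mean at or above the 30th percentile were kept, and the brightest represented each gene. The comparison, Fgf10 +/- minus wild-type, used limma 3.58.1 under R 4.3.3, with an intensity trend in the eBayes variances, two-sided, with Benjamini-Hochberg adjustment over 17234 genes. The fit was tested on simulated data. Single values were tested by two-sided exact permutation over the 70 assignments of 4 against 4 arrays. A summed level is the log2 of the summed linear intensities of a list. The members and lists were chosen with earlier results of these data known. Named genes were all members, the 3 genes with the smallest p per pathway list, the first 3 markers of a list and the 2 most correlated genes per member. The number of arrays limits the precision.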

Additional observations from a re-analysis of the deposited data

Results flagged for a closer look

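In groups of 4 arrays, single arrays were compared with the other 3 by the gap to the nearest array divided by the group's range, with a limit of 0.829. Chance passes this limit in about 1 of 20 groups, and 3 of 88 groups passed it. Ptger2 read 6.88 in array 1 labelled Fgf10 +/-, below 7.08 to 7.12 in the other 3 arrays of the group. The mesothelial marker Wt1 read 3.08 in array 2 labelled Fgf10 +/-, below 4.89 to 5.13 in the others. Nppa read 11.25 in wild-type array 4, above 4.63 to 4.86 in the other wild-type arrays. None of the 9 measured vascular tone genes passed this limit.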

How the results depend on the processing

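None of the 9 genes was called in any of the 20 alternatives, and the 8 negative differences kept their sign in all of those that give a difference. Nos2 turned to -0.0015, -0.068 and -0.024 without arrays 3 and 4 labelled Fgf10 +/- and without wild-type array 2, in a range of -0.068 to 0.068. The count of all genes called was 137 in the main test, 1 without the variance trend, 278 at an adjusted p below 0.10, and 34 to 173 with 1 array left out (lowest without wild-type array 2). Chosen after seeing the data, leaving out wild-type arrays 1 and 4 gave 81 and the Xist level as a covariate 80. Of the pathway genes, 0 were called in the main test, 2 at an adjusted p below 0.10, and 0 to 1 with 1 array left out. The replicate number as a block gave 116 genes called, 0 of the 9 genes among them and 4 of them lower at an unadjusted p below 0.05. Same-numbered arrays deviated together by r = -0.06 to 0.07, so the number does not show a pairing.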
